A study of Mus musculus with 22 samples.

Results

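Gene expression was compared between mouse embryonic stem (ES) cells kept in 2i medium and the same cells 48 h after the GSK3 inhibitor CHIR99021 (CHIR) had been left out of it, all carrying a control siRNA. The arrays were chosen by their labels alone, as every array of a control siRNA culture, and number 14 of the 22 in the series. The cells are of the Rex1GFPd2 line, in which a destabilised green fluorescent protein reports the Rex1 (Zfp42) locus, and grew in a serum-free base of Neurobasal and DMEM/F12 with N2 and B27 supplements. They were reverse transfected with control siRNA 1 or control siRNA 2 using RNAiMAX. The first arm stayed in 2i, which has, beside CHIR, the MEK kinase inhibitor PD0325901 (PD), and gave 7 arrays, 4 with control siRNA 1 and 3 with control siRNA 2. The other arm was moved 24 h after transfection to medium with PD as the only inhibitor and gave 7 arrays with the same split. Both arms were harvested 72 h after transfection, and both had PD throughout. The labels give the change of medium for the PD-only arm and not for 2i, so an effect of changing medium and an effect of CHIR loss cannot be told apart. The other 8 arrays are of cells with siRNAs against YAP and TAZ in PD-only medium, and enter the fit through a shared estimate of the spread and as values set beside those of the control cells. Replicates are labelled biological, but nothing says that they come from separate days, so the p-values measure the spread between these cultures, which may be partly technical. It is not stated whether the line is 1 clone.

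GSK3 is a kinase of the complex that marks beta-catenin for destruction; with the kinase inhibited, beta-catenin builds up and acts with TCF and LEF factors on DNA. In mouse ES cells this relieves repression by Tcf7l1 of genes of the naive state, the state of the epiblast before implantation, which inhibition of MEK also favours. GSK3 has many other substrates, among them glycogen synthase, Myc, and regulators of protein synthesis and of lysosomal genes.

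Values are deposited log2 signals, and every difference is PD-only minus 2i on that scale, so a positive number means higher after CHIR was withdrawn. Differences carry the standard error (SE) of a limma fit, and levels are given as the lowest, median and highest of the 7 arrays of an arm in that order, or as a mean ± SD (n = 7). Calls were made at an adjusted p of 0.05 (Benjamini-Hochberg, over all 18193 genes). A gene is termed bright where the mean of at least 1 arm is at or above the median level of all genes, 6.64. Signals near the floor of the array compress differences, so folds of genes that were dim in 1 arm understate the change.

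All 8 markers used to check the label, among them Pou5f1 (Oct4), Sox2, Nanog and Zfp42, were bright in both arms, with a summed level of 15.49 to 15.58 in 2i and 15.24 to 15.29 in PD-only medium (log2 of the summed linear signals). Correlations over genes were 0.9977 to 0.9987 within an arm and 0.974 to 0.9756 between arms, and no 2 arrays held identical values. All 6 measures of array quality that were compared differed between the arms by a two-sided exact permutation test with an adjusted p of 0.0227 or less. The Actb 3′ minus 5′ value, which rises with RNA degradation, was 0.966 ± 0.104 in 2i and 0.717 ± 0.035 in PD-only medium (SD, n = 7; exact permutation p = 0.000583). Spiked poly-A RNAs averaged 8.96 ± 0.15 in 2i and 8.52 ± 0.17 in PD-only medium (SD, n = 7; exact permutation p = 0.000583). These shifts run with the medium, so their part in a difference of any size cannot be told apart from that of the medium. Their part was not tested beyond the fit with the Actb value as a covariate, in which 7796 genes were called. The Actb values of the arms did not overlap (0.87 to 1.19 in 2i, 0.66 to 0.75 in PD-only medium), which makes that fit less precise. A call lost in it need not mean a smaller difference.

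Most genes could be called, and among those that changed at least 2-fold far more rose than fell. Of 18193 genes 10559 were called (58.0%), 4857 higher (26.7%) and 5702 lower (31.3%) in PD-only medium. Counts of called members of a gene list, given below, are to be read beside these shares. With a change of at least 2-fold as a second condition 1057 remained (5.81%), 750 higher (4.12%) and 307 lower (1.69%). The excess of rises grew with size: 239 genes rose and 62 fell by at least 4-fold, 105 and 17 by at least 8-fold, 52 and 5 by at least 16-fold, and 7 and 0 by at least 64-fold. The median difference of all genes was -0.04. For 6848 genes (37.6%) the arrays of the arms did not overlap, and the 1057 genes called at 2-fold were all among them. In these bulk samples a change in the share of cells of a type and a change in RNA per cell cannot be told apart. At the other end, 5289 genes (29.1%) had a 95% interval of the difference within 0.2 of 0.

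**Figure D1:**
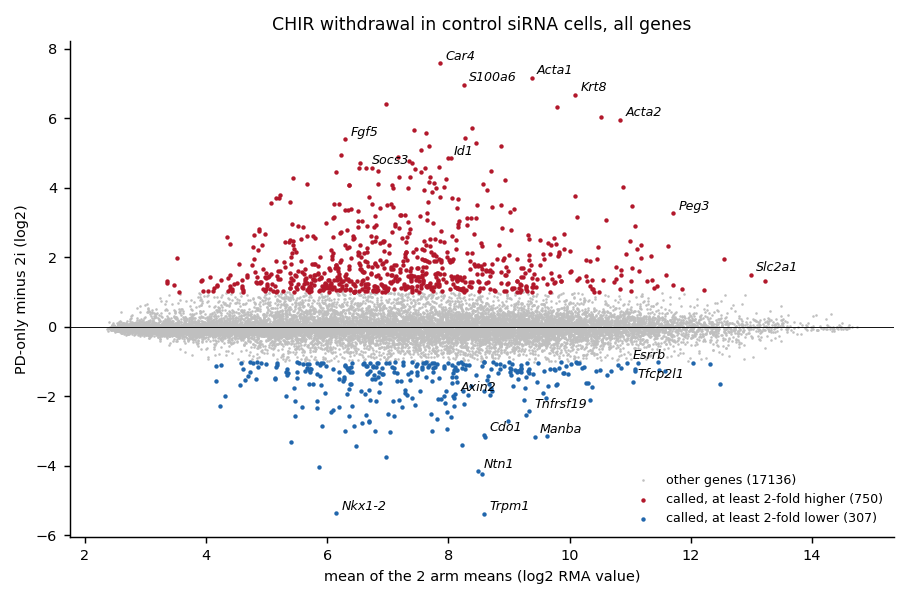
Difference between PD-only medium and 2i (vertical axis, log2) against the mean of the arm means (horizontal axis, log2 signal), 1 point per gene for 18193 genes. Red points are the 750 genes called and at least 2-fold higher in PD-only medium and blue points the 307 called and at least 2-fold lower; rises reach 7.59 (Car4) and falls -5.39 (Trpm1).

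The response was read with each control siRNA separately. All 1057 genes kept their sign with each siRNA, 976 changed at least 2-fold with each, and for 1021 the folds of the siRNAs were within 1.25 times of each other. These genes were called on the average of the same 2 differences, so a shared sign follows largely from that choice. No gene passed the test of the difference between the siRNAs' responses (limma, 0 of 18193 genes or 0.00%; smallest adjusted p = 0.185; 949 genes at an unadjusted p of 0.05). That difference was at most 0.54 in size for any bright gene called at 2-fold. Car4, with the largest rise, differed by 7.63 with siRNA 1 and 7.55 with siRNA 2, and Trpm1, with the largest fall, by -5.37 and -5.41.

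**Figure D2:**
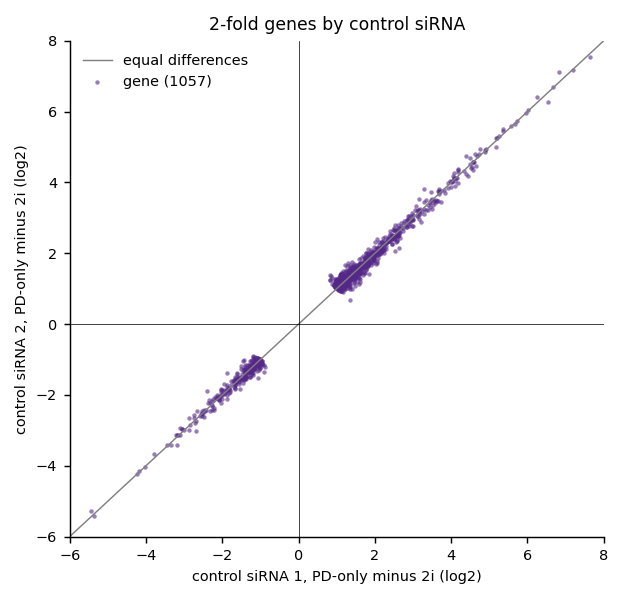
Difference between PD-only medium and 2i with control siRNA 1 (horizontal axis, log2) and with control siRNA 2 (vertical axis, log2), 1 point per gene for the 1057 genes called at 2-fold; the line marks equal differences. The points lie along the line at both ends, and none falls in a quadrant of opposite signs. The genes were called on the average of both differences, which favours a shared sign.

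The genes with the largest rises code for an enzyme at the cell surface, actins and their partners, simple-epithelium keratins and secreted proteins. Car4, carbonic anhydrase 4, which hydrates carbon dioxide at the cell surface, had levels of 3.7, 4.11 and 4.23 in 2i (lowest, median and highest) and 11.59, 11.63 and 11.75 in PD-only medium. It rose by 7.59 ± 0.07 or 193-fold (adjusted p = 6.09e-25). S100a6, a small calcium-binding protein, went from 4.4, 4.9 and 5.02 to 11.64, 11.74 and 11.84 and rose by 6.97 ± 0.07. Both were near the floor of the array in every 2i culture and among the bright genes in every PD-only culture.

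Krt8 and Krt18, which pair to form the intermediate filaments of simple epithelia, rose together. Krt8 had levels of 6.64, 6.78 and 6.83 in 2i and 13.37, 13.43 and 13.46 in PD-only medium, a rise of 6.67 ± 0.03 (102-fold). Krt18 stood at 7.39, 7.56 and 7.6 in 2i and at 13.48, 13.53 and 13.58 in PD-only medium, a rise of 6.04 ± 0.04. The arrays of an arm lay within 0.2 of each other for Krt8. Prss23, a secreted serine protease, rose by 6.41 ± 0.08 from 3.4, 3.79 and 3.91 to 9.83, 10.24 and 10.39. Pmp22, a tetraspan membrane protein known from peripheral myelin, rose by 5.73 ± 0.06 (53-fold), and Cryab, a small heat shock protein, by 5.44 ± 0.05 (43.3-fold). Vgll3, a cofactor of TEAD factors, rose by 5.66 ± 0.07, and Thbs1, the matrix glycoprotein thrombospondin 1, by 5.58 ± 0.07. Adjusted p-values of the 12 genes with the largest rises lay between 3.51e-30 (Acta2) and 2.01e-22 (Acta1).

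The named genes that fell most are of mixed kinds. Transcripts with clone names were passed over, among them 1700097N02Rik (-4.24 ± 0.03) and 1700013H16Rik (-3.73 ± 0.05), whose falls are of the size of those given here. Trpm1, a cation channel of the melastatin family, had levels of 11.23, 11.28 and 11.31 in 2i and 5.75, 5.85 and 6.05 in PD-only medium, and fell by 5.39 ± 0.04 (41.8-fold; adjusted p = 3.34e-26). Nkx1-2, a homeobox factor of the posterior embryo, went from 8.72, 8.84 and 8.89 to 3.35, 3.44 and 3.69 and fell by 5.36 ± 0.04. The PD-only levels of Nkx1-2 lie at the floor, where the array may understate a fall.

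Ntn1, netrin 1, a secreted guidance cue, fell by 4.16 ± 0.04 from 10.52, 10.56 and 10.64 to 6.22, 6.39 and 6.59. Trh, the precursor of thyrotropin-releasing hormone, fell by 3.15 ± 0.03, and Cdo1, cysteine dioxygenase, fell by 3.11 ± 0.04 from 10.09, 10.15 and 10.16 to 6.86, 7.06 and 7.13. Manba, the lysosomal enzyme beta-mannosidase, fell by 3.16 ± 0.03, and St8sia6, a sialyltransferase, by 3.02 ± 0.08. Btla, a receptor known from lymphocytes, fell by 3.3 ± 0.10, and Dnah8, a dynein heavy chain of cilia and sperm tails, by 3.17 ± 0.03. Ccdc141 fell by 4.03 ± 0.09, Cnpy1 by 3.44 ± 0.08 and Epp13 by 3.39 ± 0.05. These 12 genes were picked among genes whose arms do not overlap. By that choice each was lower in every PD-only array than in any 2i array.

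**Figure D3:**
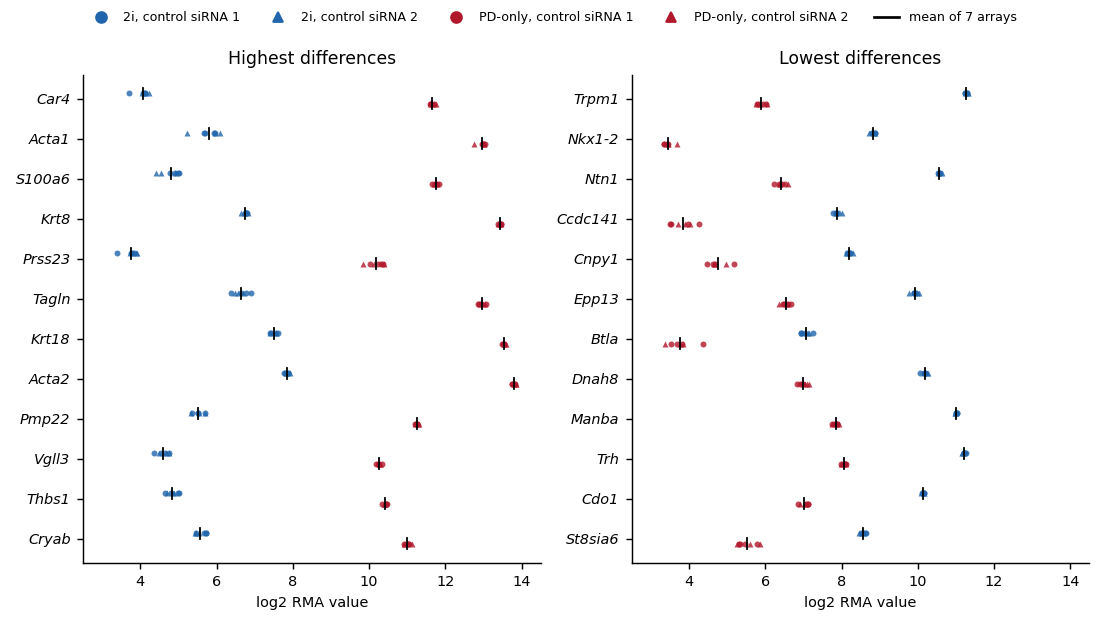
Log2 signal (horizontal axis) of the 12 bright genes with the largest rises (left) and the 12 with the largest falls (right) in each of 14 arrays, clone-named transcripts such as 1700097N02Rik left out. Blue points are 2i and red points PD-only medium, circles control siRNA 1 and triangles control siRNA 2, and black ticks are means of 7 arrays. Genes with overlapping arms were left out by the rule of choice.

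Genes of the actin cytoskeleton, many of them known targets of serum response factor (SRF), rose almost throughout. SRF acts at the CArG box, a short AT-rich element framed by CC and GG, when its cofactor is released from free actin. Of 24 measured members 22 rose, 16 of them at least 2-fold, 1 fell and 1 was not called, with a median of 1.42 against -0.04 for all genes. Acta1, skeletal muscle actin, had levels of 5.22, 5.94 and 6.09 in 2i and 12.75, 12.98 and 13.05 in PD-only medium and rose by 7.17 ± 0.10 (144-fold; adjusted p = 2.01e-22). Acta2, smooth muscle actin, went from 7.77, 7.84 and 7.93 to 13.75, 13.81 and 13.86, a rise of 5.96 ± 0.03 (62.4-fold). Arrays of an arm differed by less than 0.2 for Acta2. Tagln, transgelin, which crosslinks actin, rose by 6.33 ± 0.06 from 6.39, 6.65 and 6.91 to 12.86, 12.94 and 13.07. Myl9, a regulatory light chain of myosin, rose by 5.21 ± 0.10.

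The abundant cytoplasmic actins moved far less, Actb by 0.24 ± 0.03 and Actg1 by 0.32 ± 0.02. Other members, named with their values in view, were Cnn1 (calponin, 4.9 ± 0.07), Tpm1 and Tpm2 (tropomyosins, 3.49 ± 0.04 and 3.77 ± 0.04), Cnn2 (3.17 ± 0.04), Vcl (vinculin, 1.04 ± 0.03) and Srf itself (0.88 ± 0.04). Tpm3 fell by 0.14 ± 0.02, and Vil1, villin of the brush border, was not called (0.09 ± 0.09). In the same arm the 3′ minus 5′ value of Actb dropped by 0.249, and the rises of Acta1, Acta2, Tagln and Myl9 kept their call in the fit that has it as a covariate.

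Of 10 muscle markers 6 rose and 1 fell, a called share of 70% beside 58.0% of all genes. Their summed level was 8.77 to 8.89 in 2i and 11.39 to 11.52 in PD-only medium. Actc1, cardiac actin, rose by 5.28 ± 0.07 from 5.67, 5.85 and 6.01 to 11.02, 11.11 and 11.18, while Myod1, Myog and Ckm, which define skeletal muscle, were dim and not called. Tnnt2, cardiac troponin T, rose by 0.83 ± 0.11, but fell by 0.26 (adjusted p = 0.0108) where probe sets prone to cross-hybridise were left out, and its rise was 0.41 and not called with the Actb covariate (adjusted p = 0.0588). The part of muscle-like cells in the actin result was not tested.

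Promoters of 21 members were matched by symbol to RefSeq, and 7 held a CArG box in the window from 250 bases before to 50 after the start, against 1.58% of 14452 genes with a promoter. Those of Acta1, Myl9 and Cnn2, which have the largest changes among the 7, are shown to place the box. Each is the 250 bases before the start on the gene's strand, with the box in capitals (GRCm38.p6). They lie at chr8:123894776-123895025 (minus strand), chr2:156775214-156775463 (plus strand) and chr10:79988350-79988599 (plus strand).
Acta1: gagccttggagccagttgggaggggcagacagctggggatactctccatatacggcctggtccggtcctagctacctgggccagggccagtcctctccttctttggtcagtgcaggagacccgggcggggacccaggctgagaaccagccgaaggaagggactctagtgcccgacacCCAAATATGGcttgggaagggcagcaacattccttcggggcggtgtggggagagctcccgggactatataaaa
Myl9: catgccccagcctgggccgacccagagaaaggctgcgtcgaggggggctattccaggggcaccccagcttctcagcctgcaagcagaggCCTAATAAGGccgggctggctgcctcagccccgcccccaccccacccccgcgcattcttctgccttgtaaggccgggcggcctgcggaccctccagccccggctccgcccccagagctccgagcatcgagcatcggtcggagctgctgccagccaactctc
Cnn2: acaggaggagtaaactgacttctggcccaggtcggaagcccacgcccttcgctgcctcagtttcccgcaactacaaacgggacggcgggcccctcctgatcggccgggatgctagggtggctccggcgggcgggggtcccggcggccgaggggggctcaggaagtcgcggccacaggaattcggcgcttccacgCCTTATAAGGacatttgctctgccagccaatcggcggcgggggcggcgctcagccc

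The box begins 73 bases before the start in Acta1, 161 in Myl9 and 56 in Cnn2. The promoter of Acta2 held no such box in this window, and Tagln was not among the promoters matched. In these and all other promoters a CArG box was counted only where every base between its framing pairs was A or T. Variant boxes were not searched for, so one in the promoter of Acta2 would have been missed.

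Targets of YAP and TAZ, coactivators that bind TEAD factors and answer to cell shape and to the Hippo kinases, mostly rose. Of 22 measured, 16 rose, 13 at least 2-fold, 4 fell and 2 were not called (median 1.42). Ccn1, a secreted matricellular protein, had levels of 6.38, 6.49 and 6.71 in 2i and 10.54, 10.65 and 10.70 in PD-only medium and rose by 4.1 ± 0.05. F3, tissue factor, which starts blood clotting, went from 6.54, 6.88 and 6.95 to 10.93, 11.07 and 11.19, and Ccdc80, a matrix protein, from 4.62, 4.78 and 4.92 to 8.7, 8.85 and 9.13. Ankrd1, an ankyrin-repeat protein of muscle and stressed cells, rose by 3.8 ± 0.07 from 3.1, 3.37 and 3.42 to 7.01, 7.08 and 7.32. In cells with YAP/TAZ siRNA in the same PD-only medium these 4 genes stood at 6.06, 6.74, 4.76 and 3.39 (means of 8 arrays). Members that fell, chosen with their values in view, were Fstl1 (-0.60 ± 0.02), Dlc1 (-0.51 ± 0.04), Myof (-0.51 ± 0.04) and Foxf2 (-0.24 ± 0.08), so the list did not move as 1 block.

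The hexamer GGAATG, a core of TEAD sites searched on both strands, was in 8 of 16 promoters of these targets, and in 15.3% of all 14452. Promoters of Ccn1, Ankrd1 and Axl (a receptor tyrosine kinase, which rose by 2.92 ± 0.06) are shown as those with the largest changes that hold it, with the hexamer in capitals. They lie at chr3:145649986-145650235, chr19:36119845-36120094 and chr7:25788734-25788983, all on the minus strand (GRCm38.p6).
Ccn1: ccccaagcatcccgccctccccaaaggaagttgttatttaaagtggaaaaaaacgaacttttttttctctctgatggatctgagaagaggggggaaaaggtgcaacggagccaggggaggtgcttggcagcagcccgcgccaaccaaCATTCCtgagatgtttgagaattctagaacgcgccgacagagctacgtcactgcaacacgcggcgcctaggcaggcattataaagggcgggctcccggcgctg
Ankrd1: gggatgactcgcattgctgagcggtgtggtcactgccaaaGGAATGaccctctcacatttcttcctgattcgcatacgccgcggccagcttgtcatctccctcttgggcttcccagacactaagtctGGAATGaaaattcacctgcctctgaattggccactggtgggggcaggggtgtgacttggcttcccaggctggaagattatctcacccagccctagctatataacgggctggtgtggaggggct
Axl: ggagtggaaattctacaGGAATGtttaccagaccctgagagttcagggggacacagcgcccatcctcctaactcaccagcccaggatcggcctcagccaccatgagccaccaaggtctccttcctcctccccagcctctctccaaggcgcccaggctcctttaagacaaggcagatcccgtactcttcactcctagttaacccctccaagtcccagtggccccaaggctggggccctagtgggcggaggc

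Ankrd1 held the hexamer at 210 and at 123 bases before its start, Ccn1 at 103, there on the opposite strand, and Axl at 233.

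Known beta-catenin/TCF targets went both ways. Of 22 measured, 10 fell, 5 of them at least 2-fold, 6 rose, 3 at least 2-fold, and 6 were not called (median -0.13). The called share was 72.7%, beside 58.0% of all genes. Axin2, a scaffold of the destruction complex and a negative feedback gene, had levels of 9.02, 9.06 and 9.13 in 2i and 7.01, 7.14 and 7.35 in PD-only medium and fell by 1.94 ± 0.05 (3.83-fold; adjusted p = 1.47e-18). Tnfrsf19, a receptor of the TNF family, went from 10.50, 10.54 and 10.65 to 8.09, 8.13 and 8.16 and fell by 2.42 ± 0.03. No array of an arm came near the range of the other for either gene.

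Sp5, a zinc finger factor, fell by 1.5 ± 0.07 from 6.92, 6.99 and 7.21 to 5.32, 5.39 and 5.81, and Cdx1, a caudal homeobox factor that was dim in both arms, by 1.42 ± 0.07. Inhibitors of the pathway moved both ways. Notum, which strips Wnt proteins of their lipid, fell by 1.08 ± 0.04, Znrf3, a ligase that removes Wnt receptors, by 0.64 ± 0.04, and its partner Rnf43, dim in both arms, by 0.62 ± 0.09. Ccnd1, cyclin D1, fell by 0.8 ± 0.03, Sp8 by 0.59 ± 0.06 and Cdx2, dim in both arms and with overlapping arrays, by 0.55 ± 0.07. Dkk1, a secreted antagonist of Wnt receptors, went the other way, from 4.09, 4.32 and 4.55 to 8.26, 8.41 and 8.5, a rise of 4.08 ± 0.06. Ccnd2, cyclin D2, rose by 1.67 ± 0.05, Bmp4 by 1.32 ± 0.04, Myc by 0.96 ± 0.05, Ascl2 by 0.55 ± 0.04 and Apcdd1 by 0.14 ± 0.04. Lef1 (0.02 ± 0.03) was not called, nor were Nkd1, Nkd2, Wif1, Lgr5 and Cdx4, of which the last 3 had means of 2.92, 4.0 and 2.95 in 2i, at the floor. Nkd2, an inhibitor, was called higher with the mean of its probe sets (0.22, adjusted p = 2.74e-06) and with the Actb value as a covariate (0.43, adjusted p = 0.0059). The call of Apcdd1 was lost with the Actb value as a covariate (adjusted p = 0.891) and with siRNA 1 alone (adjusted p = 0.18).

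TCF and LEF factors bind heptamers such as CTTTGAA and CTTTGAT, searched on both strands. These were in 4 of 14 promoters of the targets, against 8.08% of all 14452 promoters. Among the members called at 2-fold that hold such a heptamer, Dkk1 rose and Tnfrsf19 and Sp5 fell, and their promoters are shown with the heptamer in capitals. They lie at chr19:30549497-30549746 (minus strand), chr14:61037988-61038237 (minus strand) and chr2:70474673-70474922 (plus strand), in GRCm38.p6.
Dkk1: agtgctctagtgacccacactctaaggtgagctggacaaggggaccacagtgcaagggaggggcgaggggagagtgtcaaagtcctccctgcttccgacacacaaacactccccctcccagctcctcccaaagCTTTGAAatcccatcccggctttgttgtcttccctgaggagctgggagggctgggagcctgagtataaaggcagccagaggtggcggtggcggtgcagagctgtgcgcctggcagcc
Tnfrsf19: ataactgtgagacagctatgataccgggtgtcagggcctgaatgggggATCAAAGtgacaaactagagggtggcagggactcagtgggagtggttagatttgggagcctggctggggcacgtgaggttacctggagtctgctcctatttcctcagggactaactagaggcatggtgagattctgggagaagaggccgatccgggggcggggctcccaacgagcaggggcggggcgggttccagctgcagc
Sp5: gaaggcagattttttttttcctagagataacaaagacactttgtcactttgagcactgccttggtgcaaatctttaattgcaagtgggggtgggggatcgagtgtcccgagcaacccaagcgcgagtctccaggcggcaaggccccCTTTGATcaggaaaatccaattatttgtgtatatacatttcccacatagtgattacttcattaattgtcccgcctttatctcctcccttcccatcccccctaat

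The heptamer begins 117 bases before the start in Dkk1, 202 in Tnfrsf19, where it reads ATCAAAG on the gene's strand, and 104 in Sp5. Tnfrsf19 has another listed window. The window of Axin2 held neither heptamer.

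The destruction complex itself changed little. Of its 15 measured genes 5 rose, 5 fell and 5 were not called, and Axin2 was the only member to change 2-fold; 66.7% were called beside 58.0% of all genes, and 3 fell with the Actb covariate or siRNA 2 alone. Ctnnb1, which codes for beta-catenin, had levels of 13.48, 13.49 and 13.58 in 2i and 13.51, 13.52 and 13.57 in PD-only medium, a difference of 0.03 ± 0.02 with a 95% interval of -0.02 to 0.07. Gsk3a and Gsk3b, the kinases CHIR inhibits, differed by 0.06 ± 0.04 and 0.03 ± 0.05, and the interval of the scaffold Axin1 was -0.07 to 0.06. With the mean of all probe sets of a gene in place of the brightest, Ctnnb1 differed by 0.10 (adjusted p = 0.0107) and Gsk3b by 0.17 (adjusted p = 9.31e-07). Btrc, a subunit that recognises marked beta-catenin, fell by 0.42 ± 0.05, Apc, a scaffold, by 0.15 ± 0.03, and its relative Apc2 by 0.19 ± 0.05. The call of Apc2 ended with the Actb covariate, siRNA 2 alone and the mean of its probe sets (adjusted p = 0.155, 0.0941 and 0.701). Its differences were then -0.16, -0.15 and -0.02. Amer1, which brings Apc to the membrane, fell by 0.16 ± 0.04, a call that was lost with the Actb value as a covariate (adjusted p = 0.678) and with siRNA 2 alone (adjusted p = 0.511). The casein kinases Csnk1d, Csnk1e and Csnk1a1 rose by 0.27 ± 0.03, 0.19 ± 0.03 and 0.12 ± 0.02, and the ligase subunits Skp1 and Cul1 by 0.19 ± 0.02 and 0.17 ± 0.03. Fbxw11, a relative of Btrc, differed by -0.06 ± 0.03 (adjusted p = 0.0716), and its sign turned with the mean of its probe sets (0.09, adjusted p = 0.0327).

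Among 13 TCF/LEF factors and their partners 4 rose, 5 fell and 4 were not called, none 2-fold; 69.2% were called beside 58.0% of all genes, and 3 fell with siRNA 2 alone. Tcf7l2 rose by 0.71 ± 0.04 and Hbp1, a repressor, by 0.45 ± 0.02. Tle4, a Groucho corepressor, fell by 0.37 ± 0.02. Tcf7l1, the repressor of naive genes, differed by -0.05 ± 0.03 and was not called; its 95% interval lay within 0.2 of 0, as did that of Lef1.

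Naive pluripotency factors mostly fell, and 17 of 18 were bright in at least 1 arm; Gbx2 was dim in both. Of 18 measured, 15 fell, 3 at least 2-fold, 2 rose and 1 was not called (median -0.43). Nr5a2, an orphan nuclear receptor, had levels of 10.47, 10.62 and 10.70 in 2i and 8.86, 8.92 and 9.0 in PD-only medium and fell by 1.66 ± 0.03. Tfcp2l1, a factor downstream of STAT3 and beta-catenin, went from 11.78, 11.83 and 11.87 to 10.18, 10.25 and 10.34, and Esrrb, an orphan receptor that holds the naive state, from 11.41, 11.47 and 11.53 to 10.41, 10.43 and 10.49. These 3 stood apart between the arms in every array, and remained bright in PD-only medium.

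Klf2 fell by 0.9 ± 0.02, Prdm14 by 0.89 ± 0.03, Tcl1 by 0.97 ± 0.03, Tbx3 by 0.74 ± 0.02 and Nr0b1 by 0.64 ± 0.02. Nanog fell by 0.51 ± 0.02, from 13.10, 13.14 and 13.17 to 12.61, 12.63 and 12.65, Dppa3 by 0.35 ± 0.04 and Zfp42, the gene of the reporter locus, by 0.34 ± 0.03. Smaller falls were those of Gbx2 (-0.33 ± 0.08), Klf5 (-0.16 ± 0.04), Fgf4 (-0.12 ± 0.03) and Klf4 (-0.08 ± 0.03), all with overlapping arms, and Sox15 was not called (-0.11 ± 0.07). With the Actb value as a covariate the calls of Klf4 (-0.07, adjusted p = 0.294) and Gbx2 (-0.17, adjusted p = 0.424) ended. With siRNA 2 alone Klf4, Klf5, Gbx2 and Fgf4 lost theirs (adjusted p = 0.767, 0.234, 0.136 and 0.0773). Their differences were then -0.02, -0.1, -0.24 and -0.11. A fit of siRNA 2 alone rests on fewer arrays, so a lost call there need not mean a smaller difference. The 2 members that rose, Socs3 and Stat3, belong to the LIF pathway.

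Core factors split. Pou5f1 fell by 0.43 ± 0.03 and Sox2 by 0.36 ± 0.03, while Utf1 rose by 0.47 ± 0.04 and Lin28a, an RNA-binding protein that blocks let-7 maturation, by 1.28 ± 0.13. L1td1 fell by 0.41 ± 0.02; in all, 6 of 10 rose and 4 fell. Of 14 genes of the formative and primed epiblast 10 rose, 7 at least 2-fold, 2 fell and 2 were not called (median 0.87). Fgf5, the classical marker of that stage, was at 2.99, 3.65 and 3.96 in 2i and 8.87, 9.0 and 9.08 in PD-only medium and rose by 5.4 ± 0.12 (42.3-fold). Pou3f1, a POU factor, rose by 1.9 ± 0.04, Pim2, a kinase, by 1.9 ± 0.05, and Cldn6, a claudin, by 2.09 ± 0.06. Genes of the primitive streak, targets of Wnt signalling in the embryo, stayed mostly dim: 12 of 14 lay below the median of all genes in both arms, and 10 of 14 were not called. Eomes rose by 1.1 ± 0.06, Foxa2 by 1.03 ± 0.10 and Fgf8 by 0.68 ± 0.08, the last 2 dim in both arms.

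Genes of the BMP axis mostly rose. BMPs act through SMAD factors on the Id genes, whose products sequester basic helix-loop-helix factors. Of 15 measured members 11 rose, 7 at least 2-fold, 2 fell, 1 of them 2-fold, and 2 were not called (median 0.96). Id1 had levels of 5.26, 5.57 and 5.87 in 2i and 10.37, 10.41 and 10.48 in PD-only medium and rose by 4.86 ± 0.06 (29.0-fold; adjusted p = 9.27e-23). Id2 went from 5.25, 5.46 and 5.86 to 9.78, 9.84 and 9.96, and Id3 from 6.25, 6.48 and 6.64 to 9.8, 9.87 and 9.9. All 3 were low in each 2i array and well apart in each PD-only array.

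Id4, picked for its opposite direction, fell by 2.09 ± 0.03, from 11.39 ± 0.06 to 9.30 ± 0.04 (SD, n = 7). Bmp2, a ligand, rose by 4.12 ± 0.07 from 3.49, 3.62 and 3.67 to 7.53, 7.71 and 7.96, and Bmp4 by 1.32 ± 0.04. Smad6, an inhibitory SMAD that BMPs induce, rose by 1.17 ± 0.06, and Smad7, an inhibitory SMAD of the wider family, fell by 0.86 ± 0.03; Msx2, a homeobox target of BMPs, rose by 2.02 ± 0.07. In cells with YAP/TAZ siRNA, also in PD-only medium, Id1, Id2 and Id3 averaged 8.57, 7.75 and 7.65, between the levels of the control arms, and Bmp2 3.89. That comparison shares the PD-only control arrays, and the values are given side by side only.

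Of the Nodal and TGF-beta axis 8 of 15 measured rose and 6 fell. The ligand Tgfb2 rose by 3.68 ± 0.06, Ltbp1, which holds TGF-beta in the matrix, by 1.65 ± 0.04, and Tgfbi, a TGF-beta-induced matrix protein, by 1.5 ± 0.05. Lefty2, a secreted inhibitor induced by Nodal, fell by 1.38 ± 0.04 from 11.25, 11.30 and 11.38 to 9.79, 9.92 and 10.12. Members chosen with their values in view, Nodal (-0.57 ± 0.02) and Lefty1 (-0.50 ± 0.03), fell too.

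LIF signals through Il6st and JAK kinases to STAT3, and Socs3 is the feedback inhibitor that STAT3 induces. Socs3 had levels of 4.14, 4.32 and 4.55 in 2i and 8.8, 8.89 and 9.08 in PD-only medium and rose by 4.58 ± 0.08 (23.8-fold). Stat3 went from 7.89, 8.06 and 8.2 to 8.84, 8.92 and 9.0 and rose by 0.87 ± 0.04, and Bcl3, a coregulator of NF-kappa-B induced by STAT3, by 1.39 ± 0.09. Tfcp2l1, a STAT3 target as well, fell by 1.58 ± 0.03, so targets within the list moved in opposite directions. Of 13 measured members 7 rose, 5 fell and 1 was not called; 3 fell with the Actb covariate or siRNA 2 alone. Il6st, named with its value in view, fell by 0.78 ± 0.03. The protocols name no LIF in the medium.

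AP-1 and other immediate early genes rose more often than not: 11 of 16, 7 at least 2-fold, with 2 falls and 3 not called (median 0.60). Fosl2, a FOS relative, went from 3.53, 3.78 and 3.94 in 2i to 8.38, 8.7 and 8.93 in PD-only medium, a rise of 4.94 ± 0.09 (30.6-fold). Fos rose by 3.6 ± 0.09 from 5.47, 5.88 and 6.12 to 9.35, 9.43 and 9.53, and Jun by 3.03 ± 0.07 from 5.68, 5.78 and 5.97 to 8.79, 8.84 and 8.89. All these levels were measured with PD present. Ier3, an early gene that ERK induces, rose by 2.8 ± 0.07. Fosl1, a further FOS relative chosen for contrast, was dim in both arms and fell by 0.21 ± 0.07. No member of this list was called lower with the mean of all probe sets, the Actb covariate or siRNA 2 alone.

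ERK target genes split: 6 of 14 rose, 3 at least 2-fold, 6 fell and 2 were not called (median -0.12). Phlda1, a pleckstrin-homology protein, rose by 2.47 ± 0.06, and the phosphatases of ERK Dusp5 and Dusp6 by 1.92 ± 0.04 and 0.75 ± 0.03. Of the other feedback genes, picked after their values were seen, Etv5 fell by 0.49 ± 0.02, Spred1 by 0.57 ± 0.06, and Spry2 was not called (-0.09 ± 0.04).

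**Figure D4:**
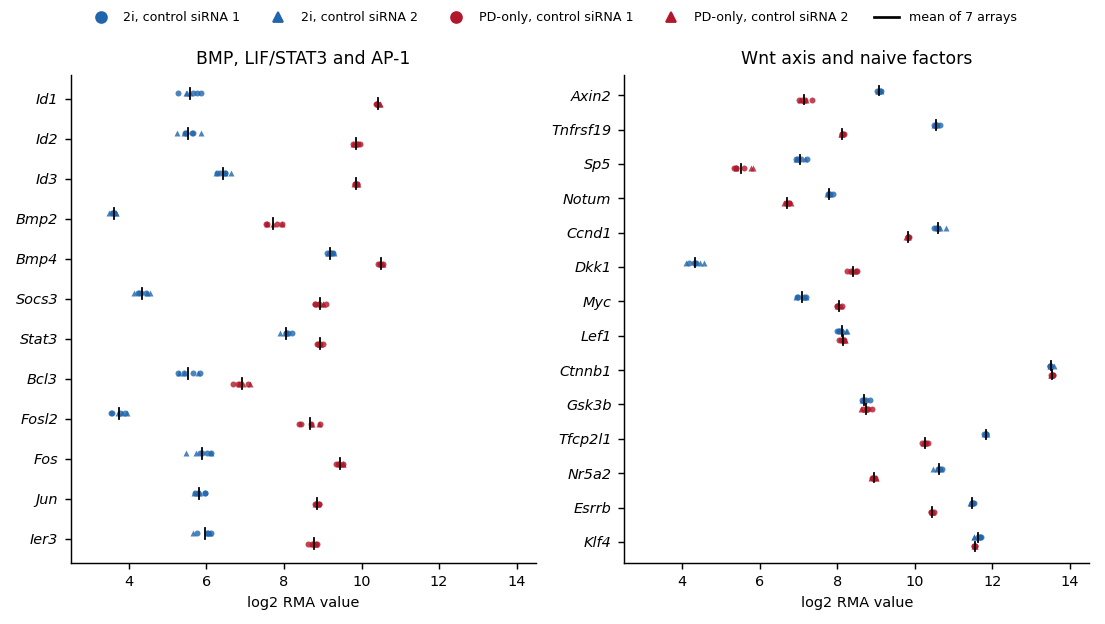
Log2 signal (horizontal axis) in each of 14 arrays of genes of the BMP, LIF/STAT3 and AP-1 lists (left) and of the Wnt axis and the naive factors (right). Blue points are 2i and red points PD-only medium, circles control siRNA 1 and triangles control siRNA 2, and black ticks are means of 7 arrays; Id1 lies between 5.26 and 5.87 in 2i and between 10.37 and 10.48 in PD-only medium, while the arms of Ctnnb1, Gsk3b, Lef1 and Klf4 overlap.

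Genes of epithelial filaments and junctions mostly rose. Of 14 keratins and desmosomal genes 10 rose, 7 at least 2-fold, and 2 fell. Beside Krt8 and Krt18, Krt19 rose by 4.87 ± 0.05 from 5.46, 5.64 and 5.73 to 10.34, 10.48 and 10.59, and Krt7 by 4.57 ± 0.08 from 4.25, 4.43 and 4.67 to 8.66, 9.04 and 9.23. Among desmosomal genes, named with values in view, Dsc2 rose by 3.55 ± 0.07 and Dsp, desmoplakin, by 3.5 ± 0.05, while Dsg2 fell by 0.88 ± 0.03 and Jup by 0.32 ± 0.04. Krt14, a keratin of stratified epithelia, was dim and not called (0.06 ± 0.07). Of 11 markers of trophoblast, which is rich in simple keratins, 6 rose and 1 fell, a called share of 63.6% beside 58.0% of all genes. Their summed level was 9.73 to 9.81 in 2i and 10.91 to 11.12 in PD-only medium. Plac1 rose by 2.62 ± 0.10 and the factor Gata3 by 2.48 ± 0.06, while Cdx2, dim in both arms, fell by 0.55 ± 0.07. Elf5 (3.6 and 3.54, means in 2i and PD-only medium) and Hand1 (5.89 and 5.94) were dim and not called. The part of trophoblast-like cells was not tested.

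Of 15 cadherin, claudin and connexin genes 12 rose, 7 at least 2-fold, and 3 fell. Cldn7, a tight junction protein, went from 5.5, 5.61 and 5.67 to 8.69, 8.83 and 8.86 and rose by 3.22 ± 0.04, and Gjb5, a connexin, rose by 1.79 ± 0.07. Epcam, an adhesion protein of ES and epithelial cells, rose by 1.33 ± 0.03. Cdh1, E-cadherin, and Cdh2, N-cadherin, are given as the usual pair of markers: Cdh1 fell by 0.15 ± 0.03 from 12.71 ± 0.04 and Cdh2 rose by 1.11 ± 0.04 from 7.58 ± 0.10 (SD, n = 7). Among 11 regulators of the epithelial-mesenchymal transition 5 rose, 1 fell and 5 were not called, a called share of 54.5% beside 58.0% of all genes. Esrp1, an epithelial splicing regulator, rose by 4.03 ± 0.07 from 5.71, 5.88 and 6.18 to 9.89, 9.94 and 10.01. Twist1, of the opposing side, rose by 1.28 ± 0.10, dim in both arms, and Zeb1 fell by 0.29 ± 0.03. Snai1 and Snai2, which repress Cdh1, were dim in both arms and not called (intervals -0.18 to 0.13 and -0.11 to 0.11). The list's name covers factors of both sides, so its count has no direction of its own.

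Of 24 extracellular matrix genes 18 rose, 11 at least 2-fold, 4 fell and 2 were not called (median 0.88). Thbs1 went from 4.65, 4.86 and 5.01 to 10.34, 10.41 and 10.47. Col5a2, a fibrillar collagen chain, rose by 4.59 ± 0.04, Col1a2 by 4.56 ± 0.08 and Col1a1 by 4.01 ± 0.09. The 4 that fell, named because they are few, were Nid1 (-0.72 ± 0.03), Fn1 (-0.68 ± 0.02), Lama1 (-0.59 ± 0.05) and Nid2 (-0.52 ± 0.02), of which the nidogens and laminin alpha 1 belong to basement membranes. Col1a1 and Col1a2 also serve as markers of fibroblasts, of which 9 of 12 rose, a called share of 75% beside 58.0% of all genes. The summed level of these markers was 8.19 to 8.37 in 2i and 10.90 to 11.03 in PD-only medium. Of the 12 markers 8 were dim in both arms, among them the defining genes Pdgfra (5.07 and 5.34, means in 2i and PD-only medium), Thy1 (5.54 and 6.06), Lum (3.25 and 3.14) and Fap (3.0 and 3.08). Postn, periostin, rose by 3.17 ± 0.06 and Pdgfrb, a receptor of PDGF, by 1.7 ± 0.08. The part of fibroblast-like cells was not tested.

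Among 15 matrix receptors 9 rose, 3 at least 2-fold, and 3 fell; 1 fell with the Actb covariate. Sdc1, a heparan sulfate proteoglycan, rose by 1.51 ± 0.04, Itgb1, the common beta chain of integrins, by 1.14 ± 0.06 and Itga3, its partner for laminins, by 0.79 ± 0.07. Of 14 S100 proteins and annexins 12 rose, 8 at least 2-fold, 1 fell and 1 was not called (median 1.29). Anxa2, which binds membranes in a calcium-dependent way, rose by 5.22 ± 0.04 from 6.07, 6.29 and 6.37 to 11.40, 11.50 and 11.54, Anxa3 by 4.5 ± 0.06 and Anxa1 by 4.02 ± 0.03. S100a10, the partner of Anxa2, named with its value in view, rose by 2.25 ± 0.03.

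Of 15 matrix proteases and inhibitors 11 rose, 9 at least 2-fold, 2 fell and 2 were not called; their median of 1.62 was the highest of the lists. Timp2, an inhibitor of metalloproteinases, rose by 3.95 ± 0.08 from 5.46, 5.57 and 5.84 to 9.39, 9.59 and 9.7, Adamts1, a metalloproteinase of proteoglycans, by 3.14 ± 0.09, and Plaur, the receptor of urokinase, by 2.95 ± 0.06. Plau, urokinase itself, was at the floor and not called (0.02 ± 0.08), and Timp1 differed by -0.01 ± 0.03.

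Guidance molecules moved in both directions and by large amounts. Of 20 measured 10 rose, 4 at least 2-fold, 8 fell, 2 at least 2-fold, and 2 were not called (median 0.06). Ntn1 and Nrp2, a receptor of semaphorins, fell by 4.16 ± 0.04 and 1.85 ± 0.03. Efna5, an ephrin, rose by 3.09 ± 0.08 from 5.86, 6.09 and 6.24 to 8.91, 9.27 and 9.43, and Sema3c, a secreted semaphorin, by 2.97 ± 0.06 from 5.37, 5.69 and 5.79 to 8.5, 8.58 and 8.7. Unc5b, a receptor of netrin 1, picked beside its ligand, rose by 1.29 ± 0.04.

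**Figure D5:**
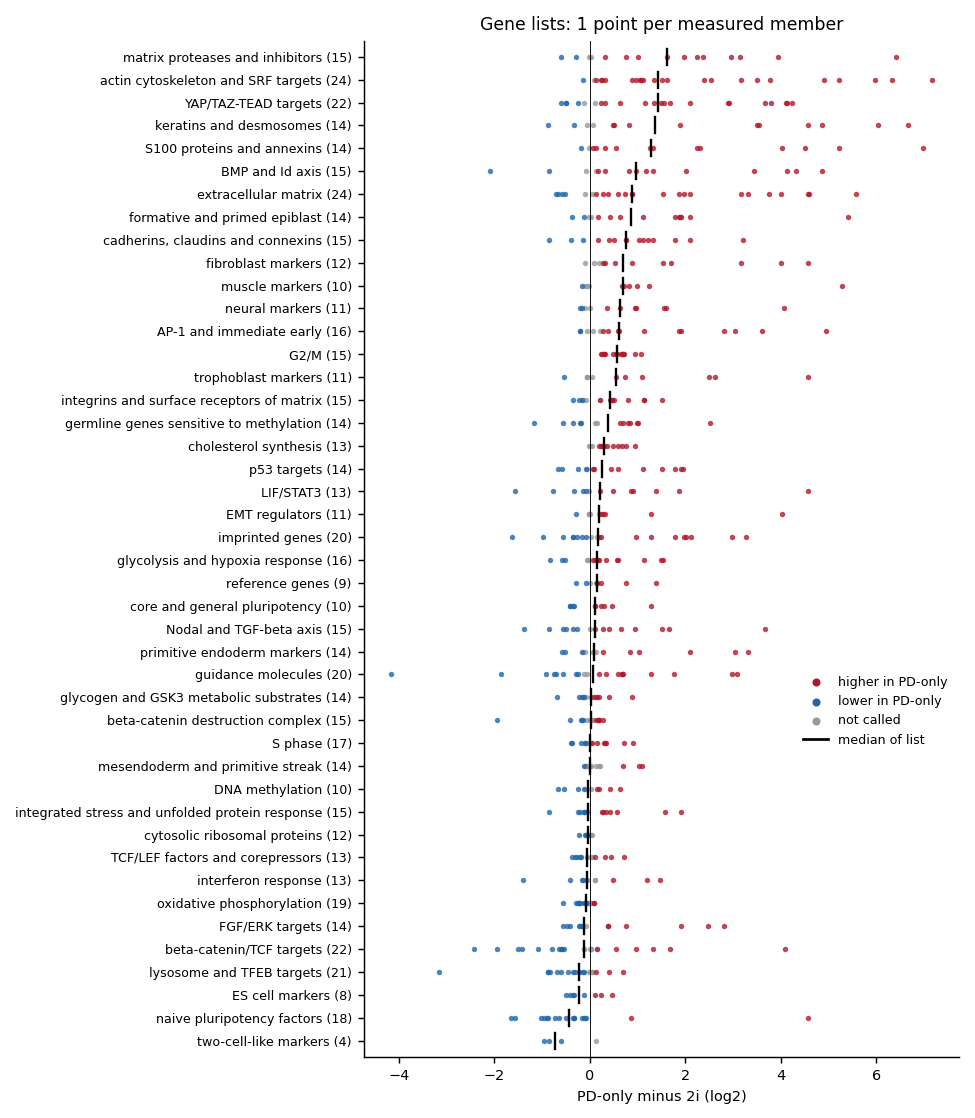
Difference between PD-only medium and 2i (horizontal axis, log2) of every measured member of 44 gene lists (vertical axis, number of members in brackets), ordered by the median of the list (black tick). Red members were called higher, blue lower and grey were not called; medians run from -0.73 for two-cell-like markers (4 members) to 1.62 for matrix proteases and inhibitors, against -0.04 for all genes.

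DNA methylation genes changed by less than 2-fold, with 4 of 10 higher, 4 lower and 2 not called, so that 80% were called beside 58.0% of all genes. Dnmt3l, a cofactor of the de novo methyltransferases, rose by 0.63 ± 0.05 from 11.72, 11.95 and 12.10 to 12.50, 12.59 and 12.62, and Dnmt3b by 0.41 ± 0.03. Tet2, which oxidises methylcytosine, fell by 0.55 ± 0.02, and Zfp57, which guards imprints, by 0.67 ± 0.05. Uhrf1, which brings the maintenance enzyme to DNA, differed by 0.01 ± 0.02 and had a 95% interval within 0.2 of 0.

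Germline genes known to be silenced by methylation did not move together: 7 of 14 rose, 5 fell and 2 were not called; 3 fell with the Actb covariate. Mael, of the piRNA pathway, rose by 2.51 ± 0.04 from 6.72, 6.89 and 6.96 to 9.31, 9.39 and 9.43, and Sycp3, of meiotic chromosomes, by 1.01 ± 0.04. Dazl, an RNA-binding protein of germ cells, fell by 1.18 ± 0.04 from 9.53, 9.6 and 9.71 to 8.33, 8.45 and 8.55.

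Imprinted genes, expressed from 1 parental allele, changed at least 2-fold in 8 of 20 measured cases, beside 5.81% of all genes; 7 rose and 1 fell. Peg3, a paternally expressed zinc finger gene, had levels of 10.07 ± 0.06 in 2i and 13.34 ± 0.03 in PD-only medium (SD, n = 7) and rose by 3.27 ± 0.03. Peg10 rose by 2.97 ± 0.09 and Nnat, dim in both arms, by 2.12 ± 0.10, both paternally expressed; the maternally expressed Phlda2, a growth restrainer of placenta, rose by 2.02 ± 0.05. Named with values in view, Igf2, a growth factor, rose by 1.98 ± 0.07 and Cdkn1c, a cell cycle inhibitor, by 1.78 ± 0.07, while Plagl1, a zinc finger factor, fell by 1.64 ± 0.03 from 13.29 ± 0.05 (SD, n = 7). Meg3, a long noncoding RNA, fell by 0.36 ± 0.03. Arrays do not separate the alleles.

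Genes of lysosomes, whose regulators TFEB and TFE3 are held in the cytoplasm by phosphorylation, mostly fell: 13 of 21 measured, 3 rose and 5 were not called (median -0.22). In all, 76.2% of them were called, beside 58.0% of all genes. Manba went from 10.97, 11.01 and 11.04 to 7.75, 7.88 and 7.94 and was the only member to change 2-fold. The carboxypeptidase Ctsa fell by 0.89 ± 0.03 and the protease Ctsb by 0.88 ± 0.03, from 10.59, 10.66 and 10.73 to 9.69, 9.78 and 9.86. Flcn, folliculin, which controls TFE3, fell by 0.85 ± 0.04. Tfe3 (0.12 ± 0.04) rose slightly and Tfeb (0.06 ± 0.05) was not called, both within 0.2 of 0.

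Of 14 genes of glycogen metabolism, a pathway GSK3 is named for, 5 rose, 4 fell and 5 were not called, a called share of 64.3% beside 58.0% of all genes. With the Actb covariate 2 rose and 2 fell, and with siRNA 2 alone 3 rose and 2 fell. Gyg, glycogenin, the primer of glycogen, rose by 0.89 ± 0.03 and Phka1, a subunit of phosphorylase kinase, by 0.4 ± 0.04. The phosphoglucomutases Pgm2 and Pgm1 fell by 0.69 ± 0.03 and 0.24 ± 0.04. Gys1, glycogen synthase, rose by 0.09 ± 0.04, with a 95% interval of 0.02 to 0.17.

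Genes of glycolysis and the hypoxia response rose in 11 of 16 cases and fell in 3. Slc2a1, the glucose transporter GLUT1, went from 12.16, 12.21 and 12.34 to 13.68, 13.72 and 13.82 and rose by 1.49 ± 0.03. Slc16a3, a lactate exporter, rose by 1.54 ± 0.09, dim in both arms, and Vegfa by 1.14 ± 0.07. Pfkp, a phosphofructokinase, fell by 0.84 ± 0.03. Of 13 genes of cholesterol synthesis 10 rose, none 2-fold, and 3 were not called (median 0.30), with Fdps at 0.93 ± 0.04, Hmgcs1 at 0.76 ± 0.03, Idi1 at 0.67 ± 0.03 and Cyp51 at 0.6 ± 0.03.

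Genes of oxidative phosphorylation and of ribosomes moved little. Of 19 respiratory genes 11 fell, 2 rose and 6 were not called, a called share of 68.4% beside 58.0% of all genes. The median was -0.09, and 13 had an interval within 0.2 of 0. Cox7c fell by 0.56 ± 0.04, Sdha by 0.3 ± 0.04 and Uqcrc2 by 0.26 ± 0.03. Of 12 ribosomal protein genes 5 fell and 7 were not called, 11 with an interval within 0.2 of 0, so that 41.7% were called beside 58.0% of all genes. The number that fell was 2 with repeated quantile normalization, the replicate block, the Actb covariate or siRNA 2 alone, and 8 with median centring. The largest fall was that of Rps6, -0.23 ± 0.02. Of 9 genes often used as references 5 rose, 2 fell and 2 were not called, a called share of 77.8% beside 58.0% of all genes. An interval within 0.2 of 0 was found for 4 of the 9. Only 1 fell with the Actb covariate, the replicate block, either siRNA alone, or any of 8 arrays left out singly. B2m, of class I histocompatibility molecules, rose by 1.38 ± 0.03 from 9.95, 10.10 and 10.17 to 11.42, 11.45 and 11.50, and Gusb by 0.75 ± 0.04. Polr2a (0.01 ± 0.02) and Tbp (-0.08 ± 0.03) had intervals within 0.2 of 0.

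All 15 mitotic (G2/M) genes rose (median 0.57). Cdc20, which starts anaphase, rose by 1.06 ± 0.03 from 11.58, 11.69 and 11.77 to 12.67, 12.75 and 12.81, Ccnb2 by 0.95 ± 0.03, and the spindle kinase Aurka and its activator Tpx2 by 0.7 ± 0.04 and 0.7 ± 0.03. Genes of S phase split, 7 of 17 higher, 5 lower and 5 not called, a called share of 70.6% beside 58.0% of all genes. Ccne1 and Ccne2, E-type cyclins, rose by 0.91 ± 0.04 and 0.71 ± 0.06, while E2f1, a transcription factor of S-phase genes, fell by 0.38 ± 0.05; Pcna differed by -0.03 ± 0.03 and was not called.

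Of 14 p53 targets 9 rose, 5 at least 2-fold, and 4 fell (median 0.26), with 92.9% called beside 58.0% of all genes. Perp, a junction protein that p53 and p63 induce, rose by 1.95 ± 0.05, Pmaip1 (Noxa), a promoter of apoptosis, by 1.91 ± 0.05, and Btg2, an antiproliferative gene, by 1.5 ± 0.04. Cdkn1a (p21), the best known of them, named with its value in view, fell by 0.57 ± 0.03. Stress genes split, 7 of 15 higher and 6 lower (3 with siRNA 2 alone), with 86.7% called. Ddit4, an inhibitor of mTORC1, rose by 1.58 ± 0.03, Atf3 by 1.91 ± 0.09 and Hspa5, a chaperone of the endoplasmic reticulum, by 0.56 ± 0.02. Asns, asparagine synthetase, fell by 0.86 ± 0.03. Among 13 interferon response genes 3 rose, 4 fell and 6 were not called, a called share of 53.8% beside 58.0% of all genes, and 2 fell with the Actb covariate or siRNA 2 alone. Bst2, tetherin, rose by 1.47 ± 0.06, and Ddx58, the RNA sensor RIG-I, fell by 1.4 ± 0.03.

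Of the other cell types checked, markers of primitive endoderm rose in 6 of 14 cases and fell in 3, a called share of 64.3% beside 58.0% of all genes. Their summed level was 10.68 to 10.79 in 2i and 12.62 to 12.73 in PD-only medium. Col4a1, Dab2 and Sparc rose by 3.31 ± 0.04, 3.05 ± 0.10 and 2.09 ± 0.03, and Gata4, Sox7 and Sox17, which define the lineage, were dim and not called. Neural markers rose in 7 of 11 cases and fell in 2, with a summed level of 9.18 to 9.29 and 10.19 to 10.31. Hesx1, a homeobox factor also of the epiblast, rose by 4.08 ± 0.09 from 3.96, 4.32 and 4.82 to 8.25, 8.43 and 8.51. Pax6 rose by 1.55 ± 0.05, and another probe set of it was called higher (0.81), while others were called lower (-0.16 and -0.25). Map2 and Tubb3 rose under every alternative, by 0.51 to 1.74 and by 0.91 to 1.00. Sox1 was dim and fell by 0.18 ± 0.07. No neural marker was called lower with siRNA 2 alone, the mean of all probe sets or an adjusted p of 0.01. Of 4 measured two-cell-like markers Zfp352, Tdpoz1 and Usp17la fell, by 0.97 ± 0.04, 0.86 ± 0.08 and 0.6 ± 0.04. The part of other cell types in the results was not tested.

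Motif content was also counted over all genes with a matched promoter, by direction of change. A TCF heptamer was in 15.9% of 245 promoters of genes that fell at least 2-fold, 6.96% of 575 of genes that rose at least 2-fold and 8.08% of all 14452. The CArG box was in 2.96% of those that rose, 1.63% of those that fell and 1.58% of all. The TEAD hexamer was in 19.8% of those that rose, 18.4% of those that fell and 15.3% of all. The AP-1 heptamer TGANTCA (7.48%, 6.94% and 7.54%) and the ESRRB nonamer TCAAGGTCA (0 of 575, 0.408% and 0.401%) are given in the same order. A gene counts if any of its listed windows holds the motif, and genes called at 2-fold have more windows, on average 1.34 where they rose and 1.39 where they fell against 1.25 in other genes. With genes that have only 1 window the TCF heptamers were in 12.6%, 5.67% and 6.92% of promoters of genes that fell, rose and in all. These shares are descriptions without a test, and a match is no evidence of binding.

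Some 2-fold changes were alike in YAP/TAZ siRNA cells, where PD-only control and YAP/TAZ siRNA differed by less than 0.3. Except for Acta1, the genes below were picked by that limit, so their likeness follows from the choice. How many of the genes called at 2-fold meet it was not counted. YAP/TAZ siRNA changed 11250 of 18193 genes in PD-only medium (61.8%, of which 6463 or 35.5% of all were higher and 4787 or 26.3% lower), and shares its control arrays with the comparison here. Jade2, a subunit of a histone acetyltransferase complex, averaged 6.22 in 2i, 8.38 in PD-only control and 8.2 with YAP/TAZ siRNA. Crip1, a LIM protein, averaged 8.79, 10.82 and 10.61, Wfdc2, a secreted inhibitor of proteases, 6.65, 8.58 and 8.64, and Lgals3, galectin 3, 9.55, 11.01 and 10.96. Among those that fell, Prxl2a averaged 9.22, 7.53 and 7.74, and Armh4 8.58, 7.12 and 7.23. Ubtfl1 (-1.31 ± 0.08), Ccser1 (-1.31 ± 0.06) and St6galnac3 (-1.29 ± 0.05) fell likewise. Acta1, by contrast in values, averaged 5.79, 12.96 and 7.1.

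Few genes called at 2-fold had a probe set that went the other way. Of 1057 genes called at 2-fold 17 had another probe set called in the opposite direction, and of all 10559 called genes 590 did. Only genes with several probe sets, 9010 of all 18193, could show this. The called genes among them were not counted, so these counts understate the share among genes that could show it. For Cryab that probe set differed by -0.14 at a mean level of 3.70, and for Scel, an envelope protein of keratinocytes (2.66 ± 0.11), by -0.14 at 3.02, both near the floor. Sh3bgr (2.61 ± 0.11) had a probe set at -0.20. Synpo2l (2.41 ± 0.07) had a probe set at -0.17, which gave its sign where probe sets prone to cross-hybridise were left out. A dimmer Synpo2l probe set that stayed in that setting rose by 1.635, at a mean level of 3.68 against 4.53. Jade2 had another at -0.17.

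The size of a change depended more on the choice of probe set than on any other setting tried. With the mean of all probe sets of a gene, 58 of 218 named and called genes had a difference smaller by over 1.5 times. Among the leading genes, Trpm1 then fell by 1.72, Nkx1-2 by 2.03, Ntn1 by 2.38 and Ccdc141 by 1.64 on the log2 scale, and Acta2 rose by 3.03 and Cryab by 3.24. Axin2 fell by 1.09, Tfcp2l1 by 0.62, Fgf5 rose by 3.40 and Fosl2 by 2.70. Without probe sets prone to cross-hybridise Acta2 rose by 2.02 and Socs3 by 1.89. Of the genes in the lists, Csnk1e, Zeb1 and Klf5 lost their calls with the mean (adjusted p = 0.0639, 0.26 and 0.756), and Cul1 with the Actb value as a covariate (adjusted p = 0.0827). Leaving out single arrays of control siRNA 2 in 2i ended the call of Klf4 (replicate A, adjusted p = 0.0602) and gave calls to Nkd1 (replicate B, 0.0464), Nkd2 and Sox15 (replicate C, 0.00449 and 0.0432). Fbxw11 was called without replicate A of that group (adjusted p = 0.0409) or of control siRNA 1 in PD-only medium (0.0467).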

How the data were processed

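Expression was measured on 22 Affymetrix arrays, 1 culture each, from Trizol RNA labelled with a 3′ IVT kit, per the labels' protocols. The deposited values are log2 signals per probe set, rounded to 2 decimals, made by the authors with RMA, per the submitters' processing notes; neither its version nor any scan date is given in the sources used here. Probe sets with 1 gene symbol in the platform annotation were used, and of several for a gene the one with the highest mean over all arrays, which gave 18193 genes.

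Groups were taken from the labels. A limma 3.58.1 model (R 4.3.3, statmod 1.5.0) with a mean for each of 6 groups of siRNA and medium was fitted to all 22 arrays with empirical Bayes moderation; the PD-only minus 2i difference averaged both control siRNAs with equal weight, and p-values were adjusted by Benjamini-Hochberg over all genes. Array quality was compared by exact permutation tests. The script was tested on simulated data. Python 3.11.15, pandas 2.3.3, scipy 1.17.1 and matplotlib 3.10.9 were used for tables and figures. RefSeq promoters (GRCm38.p6) were matched by symbol and searched for motifs on both strands.

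The comparison, the gene lists and the tests were chosen with earlier results of these data known. Named genes were the 12 bright genes with the largest rises and the 12 with the largest falls among non-overlapping genes called at 2-fold, predicted and clone-named transcripts passed over, every member of the naive, beta-catenin target and destruction complex lists, up to 4 called members with the largest difference of each other list, dim defining markers, up to 5 in each direction whose level was within 0.3 of that in YAP/TAZ siRNA cells, up to 4 with an opposite probe set, up to 6 signalling genes with a small difference, and genes whose promoters are shown. List members named beyond this rule were chosen with their values in view.

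Alternatives covered probe sets, dim genes, normalization, centring, how arrays were weighted, which arrays were fitted, the variance model, the siRNAs, the Actb value, the replicate block, the threshold and each array left out.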

Additional observations from a re-analysis of the deposited data

Results flagged for a closer look

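Arms of 7 arrays were searched for a sample far from the others, for the 211 genes named above that have array values. In 36 of 422 arms the gap of the highest or the lowest array to its neighbour was above Dixon's 95% value; chance flags about 1 in 20 groups. The flagged arrays were spread over all 14, with 1 to 6 flags each, the most for the third array (replicate C) of control siRNA 2 in 2i. For a gene described as not overlapping, none of the values below can reach the range of the other arm, by the definition of the term.

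Values that stood far below the rest of the 2i arm were 4.23 for Adamts1 (others 4.52 to 4.68), 8.44 for Armh4 (8.56 to 8.65), 3.70 for Car4 (4.04 to 4.23), 10.53 for Ctsa (10.69 to 10.80) and 11.72 for Dnmt3l (11.94 to 12.10). Further low values were 6.61 for Dusp5, 7.64 for Dusp6, 5.15 for Fgf8, 6.56 for Pmaip1, 4.24 for Postn, 3.40 for Prss23 and 9.70 for Usp17la. The widest gap was that of Lin28a, at 8.27 in 1 array of control siRNA 2 against 9.05 to 9.49 in the others. High values in 2i were 14.21 for Actb, 10.12 for Aurka, 13.58 for Ctnnb1, 10.56 for Flcn, 4.82 for Hesx1, 9.66 for Lgals3, 8.06 for Perp and 10.65 for Tnfrsf19.

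In PD-only medium low values were 12.75 for Acta1 (others 12.97 to 13.05), 7.42 for Amer1, 8.68 for Cldn6, 8.69 for Cldn7, 9.73 for Ctsa, 10.26 for Idi1, 9.15 for Pim2, 11.02 for Tle4 and 12.83 for Zfp42. High values were 7.32 for Ankrd1, 5.73 for Cdx2, 10.79 for Col4a1, 12.99 for Hspa5, 3.69 for Nkx1-2 and 8.85 for Pmaip1.

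Probe sets outside the gene comparison also changed, but a smaller share of them by at least 2-fold than of all genes (5.81%). Of 9160 with no listed gene 2950 were called, beside 10559 of 18193 genes. At least 2-fold changes were found in 149 of them (1.63%), 93 higher and 56 lower in PD-only medium. Of 932 with several gene symbols 469 were called, and 27 changed at least 2-fold (2.9%), 15 higher and 12 lower.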

How the results depend on the processing

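Counts over all genes were recomputed under 29 alternatives. The number of called genes, 10559 as reported, was lowest with Actb's 3′ minus 5′ value among the covariates, at 7796; it was 8560 and 9279 with control siRNA 2 or 1 alone, 8956 at an adjusted p of 0.01, 7959 of 9707 without dim genes, and 10120 to 10466 when each array was left out in turn. No alternative turned the direction of the excess of rises among genes called at 2-fold (68.99% to 72.74% of them higher) and none in which the siRNAs' responses could be compared gave a call for their difference. The number of genes with a 95% interval within 0.2 of 0 moved by over 1.5 times: from 5289 to 3032 without dim genes, where fewer genes are tested, 1788 with the Actb covariate, 3334 with siRNA 1 alone and 2564 with siRNA 2 alone, where the intervals rest on fewer arrays.

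Of 230 named genes 206 kept their direction and their side of the threshold under every alternative run. Of 6641 values of a gene under an alternative 6575 did so, 50 lost the call, 13 gained it and 3 turned: Fbxw11 was 0.0924 with the mean of all probe sets, and Synpo2l and Tnnt2 were -0.17 and -0.26 without probe sets prone to cross-hybridise. Most values that moved over 1.5 times did so with the mean of all probe sets, where 58 named genes had a smaller difference and 4 a larger. Of 2552 counts of called list members 117 moved by over 1.5 times. Differences of genes near the floor of the signal are compressed whatever the setting.

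Replicate letters are shared by the arms, and fitting them as a replicate block gave 10387 called genes. The labels do not say whether the letters pair the arrays. Deviations of same-lettered arrays from their group means correlated between -0.0161 and 0.0892, and 2 of 7 arrays correlated best with their own letter. These values show no strong shared effect, but cannot tell whether same-lettered cultures were set up together. Of the genes named by rule and described above, the block ended the call of Klf4 (limma, adjusted p = 0.0517). Tbp lost its call too, as only 1 reference gene fell there and Sdha kept its call. Genes named beyond the rule were followed only through the counts of their lists. Array quality measures kept their direction with each array left out, which was chosen after seeing the data.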

Other observations

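Neighbouring genes in RefSeq's order were paired over the tested genes, as a pattern chosen after the values were seen and with no test. Of 18122 neighbouring pairs 117 had both genes called at 2-fold, 66 with both higher, 24 with both lower and 27 in opposite directions. Gbp2b and Gbp2, interferon-inducible GTPases, rose by 4.45 and 3.71, and the collagen IV chains Col4a1 and Col4a2, which share a promoter region, by 3.32 and 3.75. Cryab and Hspb2, small heat shock genes set head to head, rose by 5.44 and 3.28, and the metalloproteinases Adamts1 and Adamts5 by 3.14 and 3.60. Pla2g4a and Ptgs2, which free arachidonic acid and turn it into prostaglandins, rose by 1.79 and 4.71. The homeobox genes Rhox5, Rhox6 and Rhox9 rose by 2.04, 2.72 and 1.93, and the paternally expressed Sgce and Peg10 by 1.94 and 2.97. The neurofilament genes Nefl and Nefm fell by 2.54 and 3.0 on the log2 scale. Neighbours such as duplicated genes can share probe sequence, which was not examined.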
